A study of Homo sapiens with 12 samples.

Results

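The fibroblast growth factor (FGF) ligands and receptors followed here are 10 of the 25369 genes counted: the secreted ligands FGF1, FGF2, FGF4 and FGF5, the intracellular factors FGF11 and FGF13, and the receptors FGFR1, FGFR2, FGFR3 and FGFR4. They were taken by gene symbol, and all 10 were found. FGF4 and FGF13 were picked because their levels differed between the cell lines, so their values are given as a description without a test. RNA was sequenced from 12 samples of U2OS cells, a human osteosarcoma line, carrying a Tet-On switch, which turns on a stably integrated construct in the presence of doxycycline. There were 3 biological replicates of each of 4 stable lines. The pTRE line carried the empty vector, the WT line HA-tagged wild-type E2F1, the R109K line HA-tagged E2F1 with the R109K change of an arginine to lysine, and the KK line HA-tagged E2F1 with the arginines at residues 111 and 113 changed to lysine. Every line, pTRE included, received 1 μg/ml doxycycline for 24 hours, and all keep their own E2F1 gene. Each condition is thus 1 stable line, and differences between lines that do not come from the construct cannot be told apart from its effect.

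FGFs are signaling proteins. A secreted FGF binds, together with heparan sulfate chains on the cell surface, to a receptor tyrosine kinase of the FGFR family, and the receptor then recruits adaptors that activate the Ras-ERK cascade. The ETS factors ETV4 and ETV5 and the Sprouty inhibitors are well-known targets and feedback regulators of that cascade. FGF11 and FGF13 belong to a branch of the family that is not secreted and is best known for binding voltage-gated sodium channels. FGFs and their receptors act in skeletal growth and in bone tumors.

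Reads on genes numbered between 11500537 and 31040903 per sample. WT replicate 2 was the shallowest and had 58.7% of its reads outside genes, against 23.6% to 29.6% in the others, and results that change without it are marked. E2F1 itself was at 91.2 ± 9.43 CPM (read count scaled to library size, mean ± SD, n = 3) in pTRE. It reached 1811 ± 445 CPM in WT, 1316 ± 187 CPM in KK and 1158 ± 196 CPM in R109K. The reads do not separate the construct from the cells' own E2F1. Of osteoblast markers, RUNX2 (7.78 to 18.8 CPM), COL1A1 and SPARC were present in every sample, whereas SP7, IBSP, BGLAP and COL1A2 were below 1 CPM. ALPL was at 0.32 to 2.6 CPM and SPP1 at 3.47 to 12.2 CPM. Of epithelial markers, KRT8 and KRT18 were at 168.2 CPM or more, and KRT19 was at most 0.107 CPM. EPCAM was at 9.88 to 14.7 CPM and CDH1 at 0.51 to 1.44 CPM. The mesenchymal markers VIM, CDH2 and FN1 were at 80.4 CPM or more. Of neuronal markers, RBFOX3 was at 21.5 to 56.5 CPM and SNAP25 at 7.01 to 13.9 CPM. The blood and endothelial markers PTPRC, HBB, PECAM1 and CDH5 were below 1 CPM. In the comparisons below, a transcript was said to rise or fall at more than 2-fold with an edgeR adjusted p-value below 0.01, the study's thresholds. The 3 comparisons with pTRE use the same 3 control samples.

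The secreted ligands FGF4 and FGF5 were both much higher in the lines expressing E2F1, whereas FGF1 and FGF2 stayed within 2-fold. FGF4, a growth factor of early embryos and the limb bud, lies on chromosome 11 from 69585790 to 69590109 (minus strand, GRCh37) and has 3 exons. In pTRE it had 2, 0 and 1 reads in the 3 replicates. It had 201, 57 and 138 reads in WT, 173, 88 and 116 in KK, and 64, 47 and 32 in R109K. No E2F1 line overlapped with pTRE, and every R109K sample was below every WT and KK sample in CPM. On the CPM scale FGF4 was at 5.57 ± 1.39 in WT, 4.93 ± 0.931 in KK and 1.70 ± 0.382 in R109K. WT and KK overlapped in range. Summed over replicates and scaled for depth, the level in WT was 150.5 times that in pTRE, with an exact 95% interval of 51.1 to 732.8 that covers counting error only. The same ratio was 130.2 (44.2 to 634.0) for KK and 44.8 (15.01 to 219.6) for R109K. Since pTRE held 3 reads in total, the size of these ratios is loosely fixed. FGF4 entered the fit only through the E2F1 lines.

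FGF5, a secreted ligand known as a regulator of the hair cycle, rose in all 3 E2F1 lines. It was at 5.20, 3.80 and 3.75 CPM in pTRE. The WT samples were at 44.6, 36.8 and 35.3 CPM, the KK samples at 35.8, 28.8 and 34.7, and the R109K samples at 24.7, 24.4 and 24.4. Thus no E2F1 sample came near the pTRE range, and the R109K samples lay below all WT and KK samples. The log2 fold change against pTRE was 3.20 ± 0.16 (SE) in WT (edgeR, adjusted p = 3.62e-09), 2.96 in KK (adjusted p = 5.91e-09) and 2.53 in R109K (adjusted p = 5.53e-08). Among the 16625 genes tested, it was the 173rd largest increase in WT and the 144th in R109K.

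The promoter of FGF5 is shown because FGF5 had the largest increase among the genes not chosen on their values. It runs 5′ to 3′ from 250 bases before to 49 bases after the first base of the main GENCODE transcript, read from GRCh37. Capitals mark the TATAAA letters found between 20 and 40 bases upstream of the start.
FGF5 promoter, chr4:81187568-81187867, plus strand: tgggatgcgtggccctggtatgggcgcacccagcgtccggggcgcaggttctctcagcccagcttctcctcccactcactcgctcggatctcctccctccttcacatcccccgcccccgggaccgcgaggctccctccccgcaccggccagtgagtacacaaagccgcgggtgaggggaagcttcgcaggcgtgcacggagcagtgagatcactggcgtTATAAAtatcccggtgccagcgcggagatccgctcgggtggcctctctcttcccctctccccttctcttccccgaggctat

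The TATA letters of FGF5 began 31 bases upstream. Of 17861 promoters searched, 5.15% had TATAAA or TATATA on the strand of the gene between 20 and 40 bases upstream. This pattern was looked for after the sequence had been seen. For E2F sites, the 8-letter words TTTCCCGC, TTTGGCGC, TTTCGCGC and TTTGCCGC were looked for in both orientations, in the window between 900 bases upstream and 100 downstream of the start. They were in 8.9% of promoters, which included that of FGFR1 and not that of FGF5. With the first T dropped, the 7-letter core was in 31.8% of promoters, which included those of FGFR1 and FGFR3 (411 bases upstream). The FGF5 window held no core either. Matches in the promoters of the other FGF genes are not reported here, so which of them carry these words cannot be read from this. The site of FGFR3, the receptor with the largest increase, is given with its flanks on the strand of the gene, with the core in capitals.
FGFR3 core site, chr4:1794599-1794625: acctgaggaaTTGCCGCtcacaccaca

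FGF1, which binds all the FGF receptors, differed little between lines. It was at 17.7 ± 0.81 CPM in pTRE, and at 22.2 ± 2.86 (WT), 20.9 ± 3.63 (KK) and 20.4 ± 2.99 (R109K) in the E2F1 lines. Its log2 fold change was 0.33 in WT (95% interval 0.005 to 0.65, edgeR adjusted p = 0.0970), and its replicates overlapped in KK and R109K against pTRE. FGF2, the basic FGF of many cultured cells, was at 31.5, 35.8 and 30.5 CPM in pTRE and at 24.7, 25.1 and 26.1 in WT. It was at 23.6, 24.1 and 28.03 CPM in KK and at 29.3, 30.2 and 30.7 in R109K. WT and KK therefore lay below pTRE, whereas R109K overlapped with it. The log2 fold change of FGF2 was -0.36 in WT (edgeR adjusted p = 0.0166) and -0.37 in KK (adjusted p = 0.0160), neither past the thresholds, and -0.12 in R109K (95% interval -0.35 to 0.12).

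**Figure D1:**
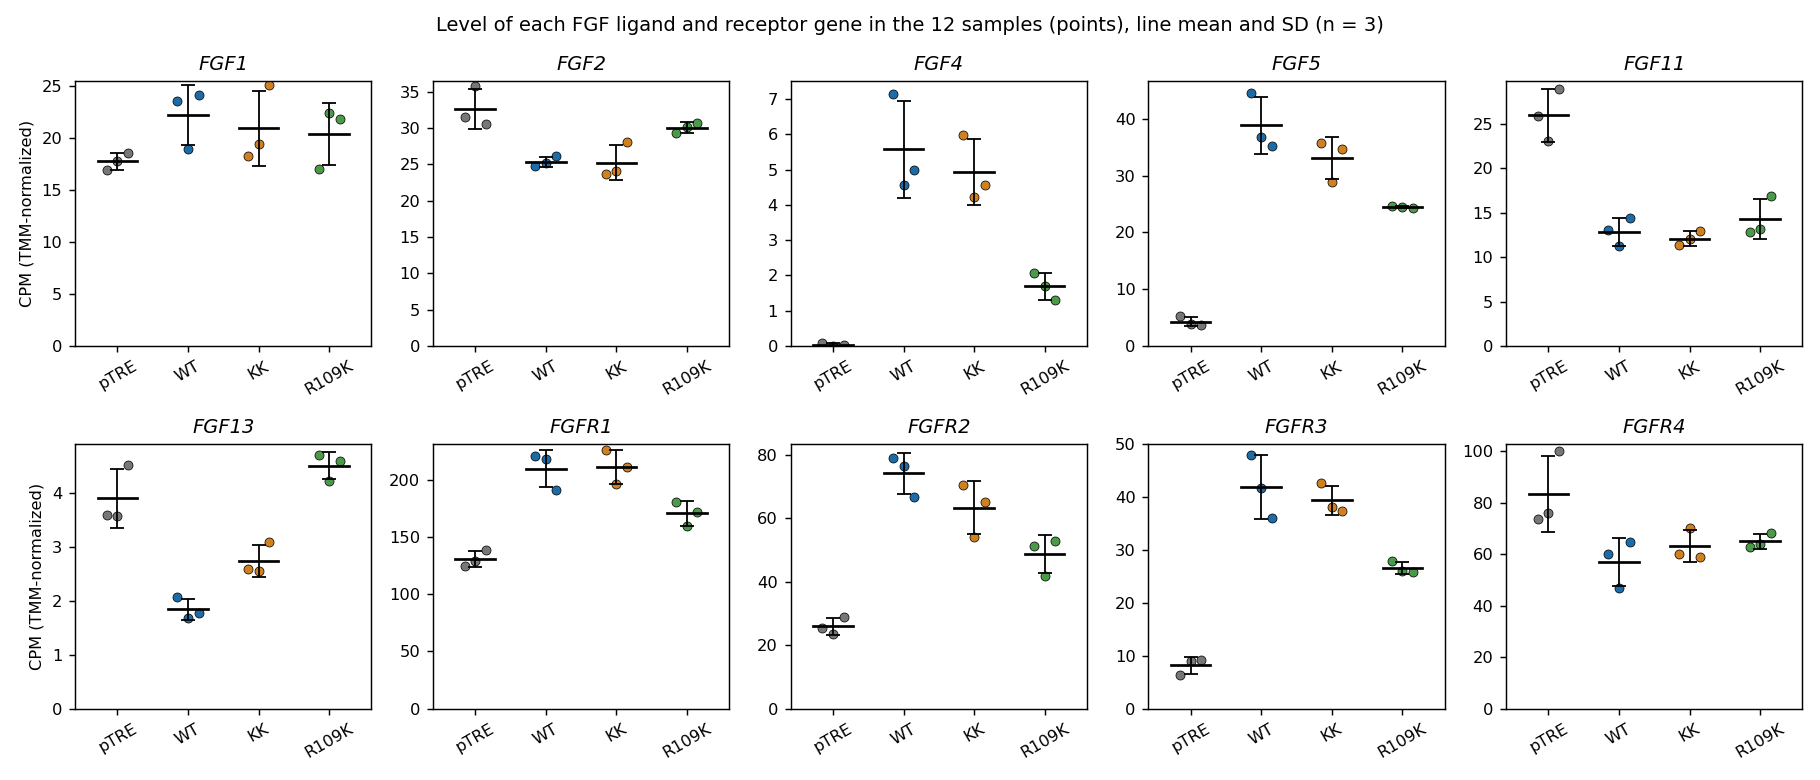
Level of each gene in CPM (vertical axis, starting at 0) in the pTRE, WT, KK and R109K lines, with points for the 12 samples, horizontal bars for means and error bars for the SD of 3 samples. FGF4, FGF5 and FGFR3 are lowest in pTRE, FGF11 is highest there, and FGF13 is lowest in WT with R109K at 4.50 CPM.

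The intracellular factors moved differently from each other. FGF11 was at 25.9, 23.1 and 28.95 CPM in pTRE. It was at 13, 11.2 and 14.4 CPM in WT, 11.3, 12 and 12.95 in KK, and 12.8, 13.1 and 16.9 in R109K. All 9 samples with ectopic E2F1 lay below all pTRE samples, and the 3 E2F1 lines overlapped. FGF11 fell in WT, with a log2 fold change of -1.004 ± 0.15 (SE; edgeR adjusted p = 6.89e-05), and in KK, with -1.10 (adjusted p = 2.96e-05). In R109K it was -0.87 (adjusted p = 3.50e-04), short of 2-fold. The WT value is at the edge of 2-fold. It was -0.92 without WT replicate 2 and also without pTRE replicate 3, and is then no longer called.

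FGF13 lies on the X chromosome from 137696888 to 138304939 (minus strand). It was at 3.59, 3.57 and 4.52 CPM in pTRE and at 2.07, 1.69 and 1.77 in WT. The KK samples were at 2.59, 2.54 and 3.08 CPM and the R109K samples at 4.70, 4.21 and 4.59. The order was WT, KK, pTRE and R109K, in which WT, KK and pTRE did not overlap while pTRE and R109K did. The log2 fold change against pTRE was -1.07 in WT (95% interval -1.49 to -0.65), -0.51 in KK (-0.91 to -0.10) and 0.21 in R109K (-0.18 to 0.60). Since FGF13 was picked for its values, its intervals describe the fit and are no test. R109K exceeded WT by 1.28 (0.86 to 1.69) and KK by 0.71 (0.31 to 1.11). These levels rest on 21 to 145 reads per sample, 21 of them in WT replicate 2, and without that replicate R109K exceeded WT by 1.22. The antisense gene FGF13-AS1 covers the main start of FGF13 and was at 0.25 ± 0.18 CPM in WT and 0.50 to 0.59 in the other lines. The strand setting of the counting is not given in the sources used here, so reads from the pair cannot be told apart.

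The receptors had different starting levels and changes. FGFR3, which restrains the growth of long bones and lies on chromosome 4 from 1795020 to 1810599, was at 6.40, 8.93 and 9.26 CPM in pTRE. It was at 48.01, 41.7 and 36.0 CPM in WT, 42.6, 38.1 and 37.4 in KK, and 27.8, 25.9 and 25.8 in R109K. The R109K samples lay between those of pTRE and those of WT and KK, with no overlap. FGFR3 rose by 2.35 ± 0.15 (SE) on the log2 scale in WT (edgeR adjusted p = 2.75e-08), by 2.26 in KK (adjusted p = 4.26e-08) and by 1.69 in R109K (adjusted p = 1.23e-06).

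FGFR2, whose splice forms decide which ligands it binds, was at 25.4, 23.5 and 28.8 CPM in pTRE and 79.1, 76.5 and 66.8 in WT. It was at 70.5, 54.2 and 65.2 CPM in KK and 51.3, 41.7 and 52.7 in R109K. Every E2F1 sample exceeded every pTRE sample, and R109K lay below KK and WT. FGFR2 rose by 1.52 in WT (edgeR adjusted p = 7.29e-07) and by 1.29 in KK (adjusted p = 3.32e-06). In R109K the log2 fold change was 0.91 (adjusted p = 1.46e-04), short of 2-fold, and it was 1.004 and called without R109K replicate 2.

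FGFR1, the main receptor of mesenchymal cells, was at 124.5, 128.6 and 138.7 CPM in pTRE and 220.6, 217.7 and 190.7 in WT. It was at 225.5, 196.2 and 210.9 CPM in KK and 180.8, 159.2 and 171.7 in R109K. The log2 fold changes of 0.68 in WT (edgeR adjusted p = 1.86e-04) and 0.69 in KK (adjusted p = 1.71e-04) met the p-value threshold but not 2-fold, and that of 0.39 in R109K (adjusted p = 0.0161) met neither. FGFR4, best known for its role in the liver, had its highest levels in pTRE, at 73.6, 76.1 and 100.2 CPM. It was at 60.1, 46.7 and 64.5 CPM in WT, 59.9, 70.2 and 59.0 in KK, and 62.8, 63.8 and 68.4 in R109K. Its log2 fold change was -0.54 in WT (adjusted p = 0.00754), -0.40 in KK (adjusted p = 0.0383) and -0.36 in R109K (adjusted p = 0.0753), none of them a call. In WT the adjusted p-value was 0.0266 without replicate 2.

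Against pTRE, 3 of the 8 genes not chosen on their values rose and 1 fell in WT, where 7.89% and 3.93% of all tested genes did. In KK, 3 rose and 1 fell, against 7.01% and 3.90% of all tested genes. In R109K, 2 rose and 0 fell, against 4.64% and 2.56%. The list was drawn up with these contrasts known, so the counts are a description and nothing is read from them. DESeq2 called 4, 4 and 2 of the 8 genes in WT, KK and R109K.

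**Figure D2:**
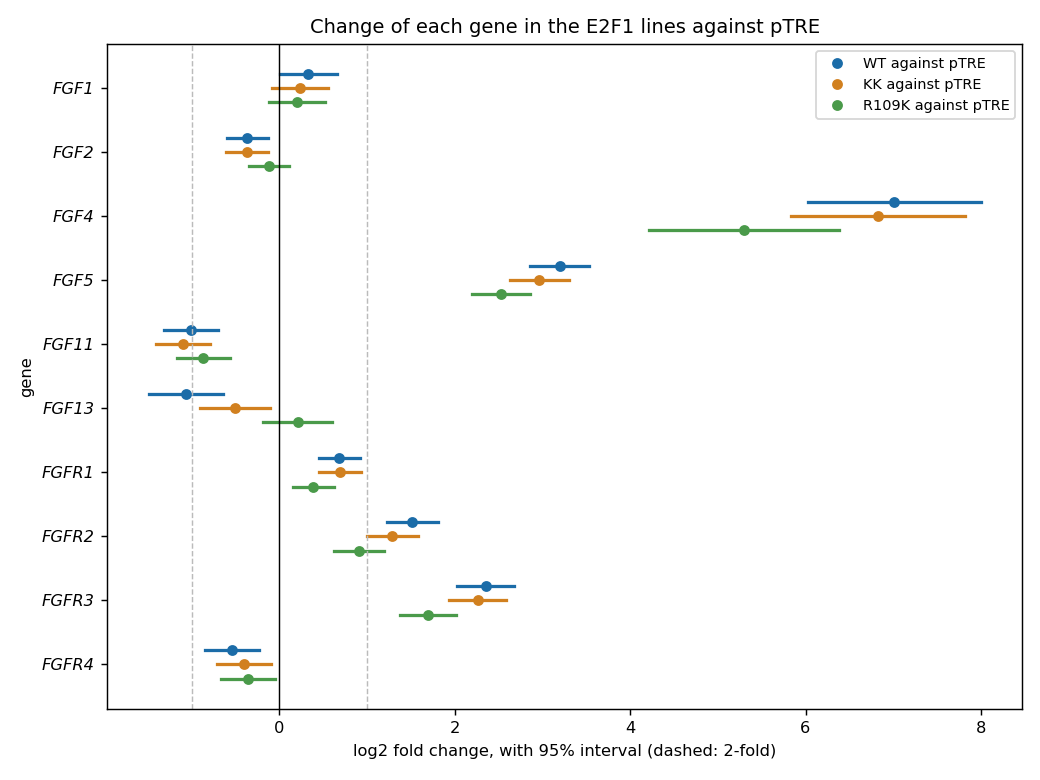
Log2 fold change of each gene in the WT, KK and R109K lines against pTRE (points) with 95% intervals (bars) from edgeR, 3 samples per line. FGF4, FGF5 and FGFR3 lie beyond the dashed 2-fold line in all 3 lines. The FGF13 points lie below 0 in WT and KK and above it in R109K, whose samples overlapped with pTRE. FGF4 and FGF13 are shown as a description. The fitted FGF4 change depends on the prior count because pTRE held 3 reads.

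Receptor levels can be compared with each other only per length. With the length of all exons joined, FGFR4 made up 61.7% ± 2.4 (SD, n = 3) of the summed FGFR1 to FGFR4 level per kb in pTRE. Its share was 32.4% ± 5.1 for WT, 35.6% ± 3.7 for KK and 42.9% ± 1.9 for R109K. The share of FGFR3 was 6.04% ± 0.88 for pTRE, 23.5% ± 2.3 for WT, 22.02% ± 0.91 for KK and 17.4% ± 0.81 for R109K. With the length of the longest coding transcript, the FGFR4 share was 40.6% in pTRE and 19.5% in WT, and the FGFR3 share was 2.88% and 10.2%. For both genes the E2F1 samples did not overlap with pTRE by either length, and R109K lay between pTRE and WT. FGFR1 held the largest share in every line by the coding length. By the joined exons FGFR4 had the highest mean in pTRE, KK and R109K, so which receptor is the most abundant depends on the length model. The summed level per kb of joined exons was 27.97 ± 3.82 for pTRE, 36.6 ± 2.42 for WT, 36.9 ± 1.20 for KK and 31.5 ± 1.21 for R109K, the last of which overlapped with pTRE. More RNA per cell and more cells with the RNA cannot be told apart in such bulk samples.

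**Figure D3:**
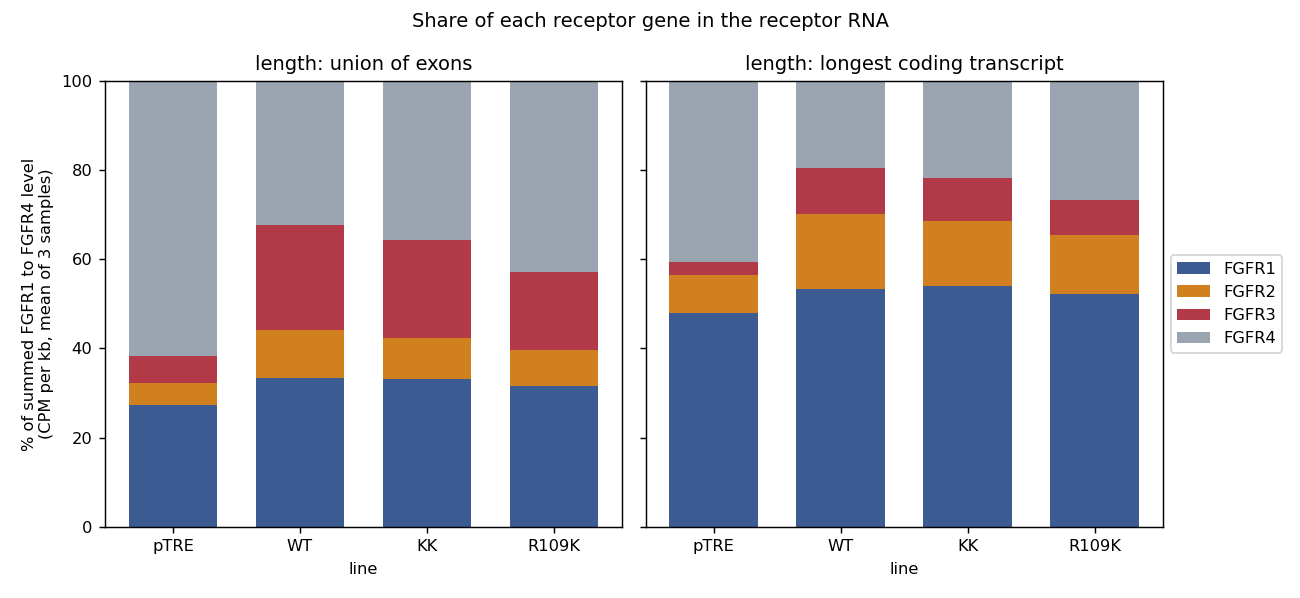
Share of FGFR1, FGFR2, FGFR3 and FGFR4 in their summed level (CPM per kb, mean of 3 samples per line) by the joined exons (left) and by the longest coding transcript (right). The FGFR4 segment is largest in pTRE, and the FGFR3 segment grows from 6.04% to 23.5% in WT in the left panel.

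R109K was next compared directly with WT and with KK. FGF5, FGFR2 and FGFR3 had lower levels in all R109K samples than in any WT sample, but none passed both thresholds. The log2 difference was -0.67 for FGF5 (95% interval -0.97 to -0.37, edgeR adjusted p = 0.0180), -0.66 for FGFR3 (-0.96 to -0.36, adjusted p = 0.0212) and -0.61 for FGFR2 (-0.89 to -0.33, adjusted p = 0.0220). Over the alternatives tried, the adjusted p-values ranged from 0.000581 to 0.0954 for FGF5, from 0.000951 to 0.111 for FGFR3 and from 0.00106 to 0.125 for FGFR2, lowest with DESeq2. FGFR1 was lower by 0.30 (0.06 to 0.53, adjusted p = 0.140). FGF2 went the other way and was higher in R109K by 0.25 (0.01 to 0.48, adjusted p = 0.208), with no overlap of the replicates. The interval of FGF11 was -0.17 to 0.45, and that of FGFR4 was -0.12 to 0.49. R109K samples also held less E2F1 RNA than the WT samples by the fit, lower by 0.65 on the log2 scale (edgeR adjusted p = 0.0577). For E2F1 RNA, KK against WT was at -0.46 (95% interval -0.84 to -0.08, adjusted p = 0.574). R109K against KK was at -0.18 (-0.56 to 0.19, adjusted p = 0.773). The part of the E2F1 RNA level in the differences between lines was not tested. FGF4, picked for its values, was lower by 1.72 (1.13 to 2.30), which is given as a description and no test.

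Of the 8 genes not chosen on their values, 0 were called between R109K and WT, where edgeR called 0.343% of all tested genes. At an unadjusted p-value under 0.05 there were 5 of 8 and 3714 of 16625 genes, and DESeq2 called 0 of the 8. The replicates of R109K and WT did not overlap for 7 of the 10 genes and for 5 of these 8, against 27.1% of all tested genes. Between R109K and KK, 0 of the 8 were called by either tool (0.0902% of all tested genes by edgeR), and 5 of 8 had an unadjusted p-value under 0.05, as did 2062 of 16625 genes. There, FGFR3 was lower by 0.57 (95% interval 0.27 to 0.87, adjusted p = 0.0694), and its adjusted p-values ranged from 0.00945 to 0.279 over the alternatives.

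KK and WT differed little in the 8 genes not chosen on their values. Of the 8 genes, 0 were called by edgeR or DESeq2 and 0 had an unadjusted p-value under 0.05, and edgeR called 0.00602% of all tested genes. The 95% intervals of the log2 difference of KK from WT were -0.53 to 0.06 for FGF5, -0.39 to 0.21 for FGFR3, -0.51 to 0.06 for FGFR2 and -0.23 to 0.24 for FGFR1, which leaves room for differences below 1.5-fold. FGF13 was the only one of the 10 genes whose replicates did not overlap between KK and WT, as for 9.97% of tested genes. As a description and no test, FGF13 was higher in KK by 0.56 (95% interval 0.13 to 0.99), and FGF4 was at -0.18 (-0.74 to 0.37).

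**Figure D4:**
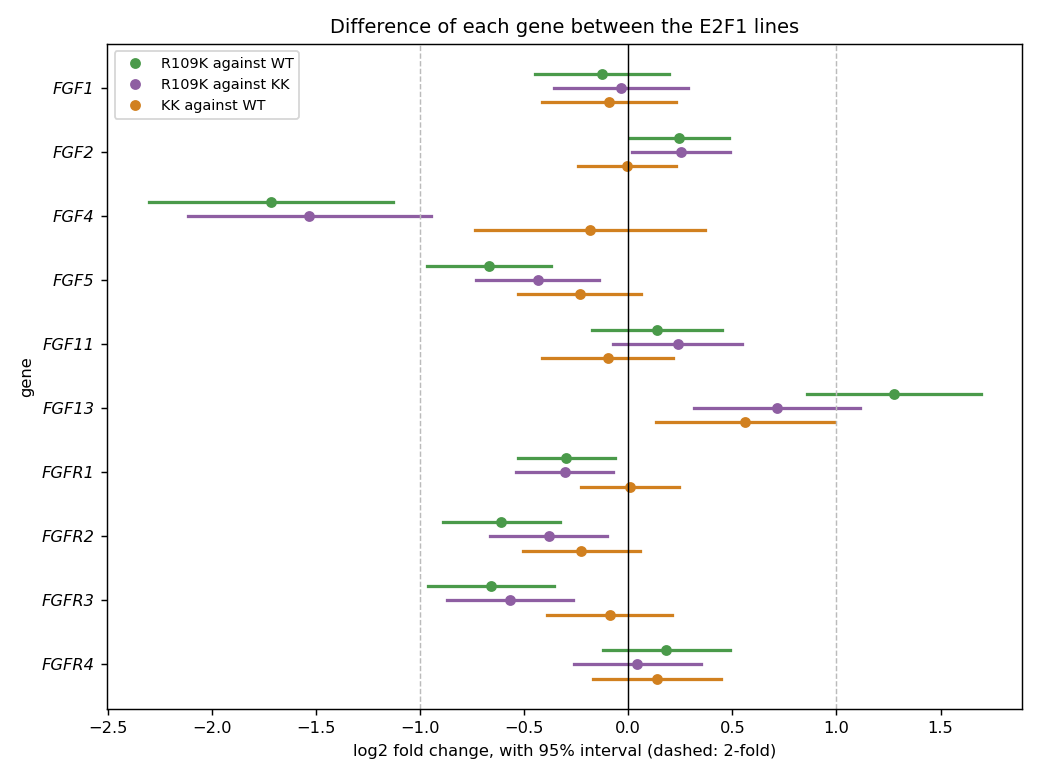
Log2 difference of each gene between the E2F1 lines (points) with 95% intervals (bars) from edgeR, 3 samples per line. Of the 8 genes not chosen on their values, FGF5, FGFR1, FGFR2 and FGFR3 have R109K intervals below 0 against both WT and KK, FGF2 has them above 0, and the KK against WT intervals of all 8 include 0. FGF4 and FGF13 are shown as a description.

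The other genes of the pathway were taken from lists by function, 91 genes of which 76 were tested. In WT, 9 rose and 6 fell, where 7.89% and 3.93% of all tested genes did. In KK, 8 rose and 7 fell, beside 7.01% and 3.90% of all tested genes, and in R109K 4 and 4, beside 4.64% and 2.56%. The counts of single lists below stand against the same shares. Their median log2 fold change was 0.05 in WT, beside 0.00 for all tested genes. Of the other secreted FGFs, 5 of 14 were tested. FGF9 rose in WT from 2.03 to 5.08 CPM (log2 fold change 1.31, edgeR adjusted p = 0.00146), and FGF21, a metabolic hormone, fell from 4.69 to 1.00 CPM (-2.16, adjusted p = 2.3e-05). FGF12, an intracellular relative of FGF13, rose in KK from 5.73 to 12.1 CPM (1.07, adjusted p = 4.2e-05). It was at 10.8 CPM in WT (0.92, adjusted p = 0.000184) and R109K (0.92, adjusted p = 0.000254), where only the 2-fold limit was missed. The decoy receptor, co-receptors and binding proteins, 13 tested, had 0 rises in each E2F1 line, with 3 falls in WT, 5 in KK and 2 in R109K. The falls in WT were of SDC2, SDC3 and HSPG2, which carry heparan sulfate, at -1.65, -1.27 and -1.04 on the log2 scale. SDC2 fell in KK too, and SDC3 and HSPG2 fell in KK and R109K. In WT, HSPG2 was close to both thresholds (edgeR adjusted p = 0.00906), and its WT and pTRE samples overlapped. Its log2 fold change was -1.42 in KK (adjusted p = 0.0012) and -1.32 in R109K (adjusted p = 0.00277), without overlap with pTRE. FGFBP1, which releases FGFs from the matrix, fell in KK (-2.07, adjusted p = 0.00634) and was at -1.88 in WT (adjusted p = 0.0108). It had few reads, 59 summed over the pTRE samples, 13 over KK and 14 over WT. SULF1, which edits heparan sulfate, fell in WT (-1.09, adjusted p = 0.00401).

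Downstream of the receptors, 1 of 24 adaptors and signal transducers rose in WT, namely the docking protein GAB1 (1.25, edgeR adjusted p = 1.57e-05). Of 11 tested feedback inhibitors and regulators, SPRY4 and FLRT1 rose in WT, KK and R109K, FLRT3 fell in WT and KK, and IL17RD fell in R109K (-1.09, adjusted p = 0.00555). SPRY4 had a log2 fold change of 1.35 in WT, 1.12 in KK and 1.03 in R109K. Of the feedback genes, 8 were not called in each of the 3 lines. Of 11 tested targets of the cascade, 5 rose in WT, among them FOS (2.16, adjusted p = 9.46e-05), ETV1 (1.41, adjusted p = 0.00462) and EGR1 (1.34, adjusted p = 0.00461). The other 6 were not called in WT. In KK, 4 rose and 7 were not called, and in R109K 2 rose, 1 fell and 8 were not called. EGR1 had a log2 fold change of 0.87 in KK (adjusted p = 0.0494) and -0.12 in R109K (adjusted p = 0.838). ETV4 rose by 1.12 in WT, 1.18 in KK and 1.19 in R109K, and ETV5 by 1.22, 1.24 and 1.09. ETV1 was the 1 gene of these lists called between R109K and WT, at 0.246 CPM against 2.24 (log2 fold change -3.15, adjusted p = 0.00259). Against pTRE, ETV1 fell in R109K (-1.75, adjusted p = 0.00563). CCND1, also among these targets, was lower in WT (-0.48), KK (-0.47) and R109K (-0.64), short of 2-fold. Of 7 tested sodium channel genes, the partners of FGF13 and FGF11, SCN8A and SCN11A rose in WT, SCN2A fell in WT and KK, and SCN3A fell in KK and R109K. SCN11A had few reads, 11 summed over the pTRE samples and 45 over WT.

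Among 9 tested neighbors of FGF4 at 11q13, 1 rose in each E2F1 line, the chloride channel gene ANO1. It starts 241.9 kb from the start of FGF4. ANO1 was at 5.54, 6.12 and 6.43 CPM in pTRE, 49.6, 52.8 and 39.2 in WT, 51.6, 40.5 and 41.3 in KK, and 27.97, 21.7 and 22.4 in R109K. As for FGF4, no E2F1 sample overlapped with pTRE and the R109K samples lay below WT and KK. The log2 fold change of ANO1 was 2.96 in WT (edgeR adjusted p = 6.19e-09), 2.88 in KK and 1.99 in R109K. CCND1, on the other side, went from 202.6 CPM in pTRE to 144.9 in WT (-0.48, adjusted p = 0.00202), which is short of 2-fold. FGF3, another FGF gene of this region, had too few reads to be tested, with 0, 0 and 1 in pTRE, 8, 3 and 15 in WT, 4, 8 and 3 in KK, and 1, 0 and 1 in R109K. Of 5 tested neighbors of FGF13, 0 were called in any of the 3 lines against pTRE, by edgeR, with 2 at an unadjusted p-value under 0.05 in each, where 8153, 7585 and 6422 of the 16625 tested genes were in WT, KK and R109K.

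**Figure D5:**
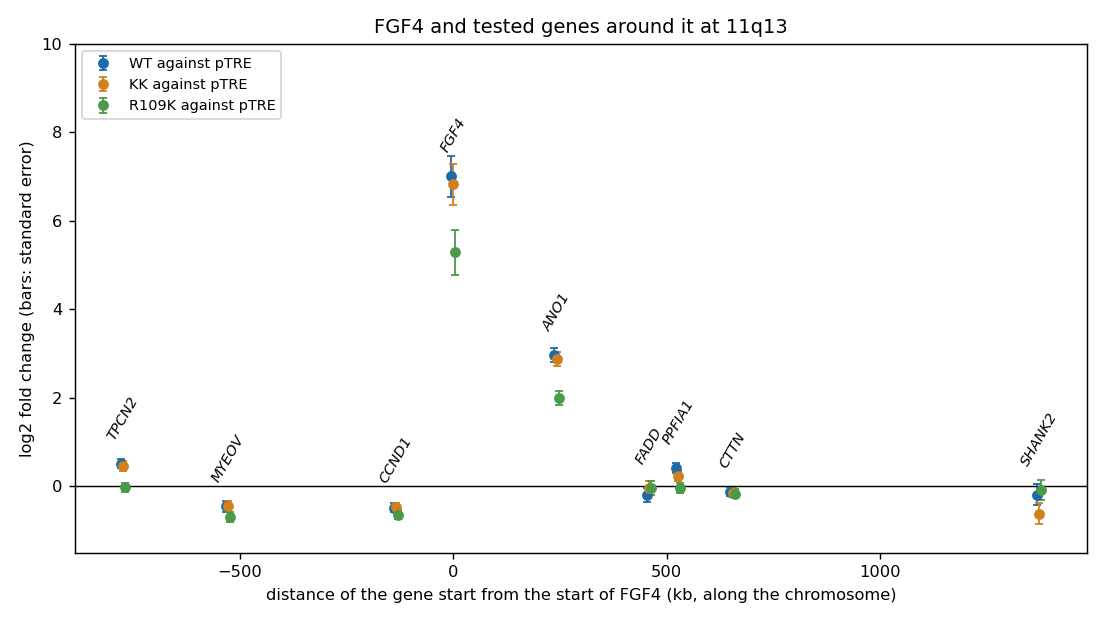
Log2 fold change against pTRE (points, with standard errors) of FGF4 and 8 tested genes around it, by the distance of each start from the FGF4 start in kb. FGF4 and ANO1 stand above 1.9 in all 3 lines, and the other genes lie between -0.69 and 0.51.

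Over the 12 samples, the genes most like FGF4 in log2 CPM were PGBD1 (Pearson r = 0.996), PLCL2 (0.994), ABCG2, EPB41L4B and CTNND2 (0.992 each), out of 14511 genes with a mean of at least 1 CPM. FGF5 had an r of 0.989 with FGF4. ABCG2, a drug efflux pump, was at 4.51 CPM in pTRE and at 110.1 (WT), 103.5 (KK) and 54.9 (R109K) in the E2F1 lines. The genes most like FGF13 were MATN2 (0.939), CPPED1 (0.931), TRIM22 (0.927), MRPL10 (0.902) and DEF6 (0.894). These values describe 12 samples that share the same 4 lines, and most of each is the difference between lines.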

How the data were processed

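RNA-seq was performed on poly(A) RNA from 12 samples, 3 biological replicates per line, with directional libraries. The authors deposited raw counts of reads per gene, without normalization. The submitters' processing notes name Trim Galore 0.4.3, STAR 2.5.1, hg19 and DESeq2 1.16.1. The annotation and the strand setting are not given in the sources used here. Lines for uncounted reads, 34.3% to 68.8% of each total, were left out. Counts were filtered with filterByExpr by line, normalized by TMM and fitted to all 12 samples with edgeR 4.0.16 in R 4.3.3 (quasi-likelihood tests, Benjamini-Hochberg adjustment over 16625 genes, no block). Standard errors and 95% intervals come from that fit. The calling steps were tried on simulated counts for pTRE and WT alone, which did not check the standard errors or intervals. The common dispersion was 0.0239. CPM was computed with TMM-scaled totals, and log2 CPM per sample with a prior count of 2. The alternatives were DESeq2 1.42.0, RLE, no filter, at least 10 counts in every sample, 6-sample fits, a replicate block, glmTreat, an adjusted p-value of 0.05 and each replicate left out. Genes named were at most the 4 per list with the largest changes in WT among those called in any line, 5 by likeness, and any neighbor. ETV4 was named beyond this rule, after its values were seen. The FGF members and gene lists were chosen with earlier results of these data known. Positions come from GENCODE v44 lifted to GRCh37. Deviations from the line means had a mean r of 0.0436 between same-numbered replicates (-0.295 to 0.470 over 18 pairs). For different numbers it was -0.0235 (-0.383 to 0.314 over 36 pairs), and the numbers were not taken as pairs. Some same-numbered samples of different lines were closer in counts than replicates of the same line, such as replicate 2 of KK and R109K. Whether the numbers mark a batch was not tested. Some promoter sequences are not reported here, and splicing was not analysed here.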

Additional observations from a re-analysis of the deposited data

Results flagged for a closer look

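FGF13 was singled out because the lines differed in direction: every WT and KK sample was below the mean of pTRE, and every R109K sample was above it. The fitted log2 difference was 1.28 for R109K against WT and 0.71 for R109K against KK. Since FGF13 was chosen for this pattern, the difference was not tested, and R109K overlapped with pTRE.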

How the results depend on the processing

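Of the 8 FGF genes not chosen on their values, 3 to 4 were called in WT against pTRE, 4 in KK, 2 to 3 in R109K and 0 between the E2F1 lines over 12 alternatives, glmTreat and the p-value of 0.05 aside. FGF4 and FGF13 were chosen on their values, so their passing the thresholds below is a description and no test result. The counts that follow are of genes past the thresholds, for all 10 FGF genes and for the 76 tested pathway genes. They were 6 and 15 in WT against pTRE, 5 and 15 in KK against pTRE, 3 and 8 in R109K against pTRE, 2 (FGF4 and FGF13 alone) and 1 in R109K against WT, 0 and 0 in KK against WT, and 0 and 1 in R109K against KK. Testing against 2-fold with glmTreat left 3 pathway genes in WT, 3 FGF genes and 1 pathway gene in KK, 0 pathway genes in R109K, 0 and 0 in R109K against WT, and 0 pathway genes in R109K against KK. For R109K against WT, a minimum of 10 counts in every sample, which drops FGF4, gave 1 FGF and 0 pathway genes, 6-sample fits gave 0 and 0, and the pathway count was 4 with DESeq2, 3 without a filter and 5 at an adjusted p-value of 0.05. For R109K against KK, the FGF count was 1, which is FGF4, with DESeq2, without a filter and at 0.05, and the pathway count was 0 with the minimum of 10. Leaving out each replicate in turn gave 4 to 6 FGF genes in WT against pTRE, 3 to 6 pathway genes in R109K against pTRE (3 without pTRE replicate 3), 0 to 2 FGF genes and 0 to 4 pathway genes in R109K against WT, and 0 to 1 pathway gene in R109K against KK.

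The replicate block gave 3 pathway genes in R109K against WT and moved no other count by over 1.5 times. In WT, FGF11 was at -0.997 (RLE), -0.99 (minimum of 10) and -0.99 (6-sample fit), each short of 2-fold, and in R109K at -1.003, past it, without replicate 3. The differences that turned direction were all between E2F1 lines. For KK against WT, FGF4 was at -0.18 and spanned -0.34 to 0.0488 with replicates left out, above 0 without WT replicate 1. Also for KK against WT, FGF2 was at 0.0016 with DESeq2 and 0.0055 without a filter, and with replicates left out FGF2 spanned -0.082 to 0.0493, FGF1 -0.24 to 0.0049, FGFR1 -0.0441 to 0.0601 and FGFR3 -0.18 to 0.0309. For R109K against KK, FGF1 spanned -0.13 to 0.11 and FGFR4 -0.0058 to 0.13. For FGF4 against pTRE the span was 6.47 to 7.89 in WT, 6.28 to 7.71 in KK and 4.75 to 6.18 in R109K. The causes of these changes were not tested. With 3 reads of FGF4 in pTRE, depth limits the size of its change.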
